A study of Mus musculus with 24 samples.

Results

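The genes Ly6a, Ly6c1, Ly6c2, Ly6e, Ly6h and Lynx1, which encode small surface proteins of the Ly6 family, were followed across neocortex, cerebellum and hippocampus of mice with an LLC tumour and of control mice. These 6 genes were chosen by symbol from the 47643 symbols of the expression table, with earlier results of these data known, and all 6 were detected. The series concerns wasting (cachexia) caused by a tumour and its effect on different organs. All mice were male C57BL/6J (strain given as C57BL6/J) aged 4 months with no genetic change named. The LLC groups had been injected with LLC cells, which grew for up to about 3 weeks, and the control groups had received a mock injection. LLC commonly stands for the Lewis lung carcinoma line, which the labels do not spell out, and the title of the series names melanoma. Each of the 6 groups of region and treatment had 4 libraries, numbered 1 to 4 for LLC and 14 to 17 for control, 24 in all.

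Ly6 proteins are small and held together by disulfide bonds in a fold with 3 loops, and most are tied to the outer cell membrane by a glycosylphosphatidylinositol (GPI) lipid anchor. Ly6a, also called Sca-1, marks blood stem cells and is made in the brain mainly by the endothelial cells that line blood vessels. Ly6c1 is likewise a gene of brain endothelium, and the near copy Ly6c2 encodes the Ly6C antigen of inflammatory monocytes. Ly6e is made by many cell types and is induced by interferon. Ly6h and Lynx1 are neuronal and bind nicotinic acetylcholine receptors, which Lynx1 dampens.

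All 6 genes lie on chromosome 15 of mm10 within 819.4 kb, in GENCODE M21 coordinates. Lynx1 (ENSMUSG00000022594.14) is at chr15:74747852-74753046 and Ly6a (ENSMUSG00000075602.10) at chr15:74994877-74998031, both on the minus strand. Ly6e (ENSMUSG00000022587.14) is at chr15:74955051-74959905 on the plus strand. Ly6c1 (ENSMUSG00000079018.10) is at chr15:75044018-75048830 and Ly6c2 (ENSMUSG00000022584.14) at chr15:75108158-75111970, both on the minus strand. Ly6h (ENSMUSG00000022577.17) is at chr15:75551268-75567255, also on the minus strand. Between the outer ends of Lynx1 and Ly6h the annotation holds 43 genes, 19 of them protein coding and 19 pseudogenes, and 38 of the 43 were in the table. Only 5 of these 38 had a mean of at least 1 TPM (a level divided by transcript length and set to a common total per library) over the 24 libraries. They were Lynx1, Ly6e, Ly6a, Ly6c1 and Ly6h, and the highest gene among those not described here was Ly6d at 0.616 TPM.

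**Figure D1:**
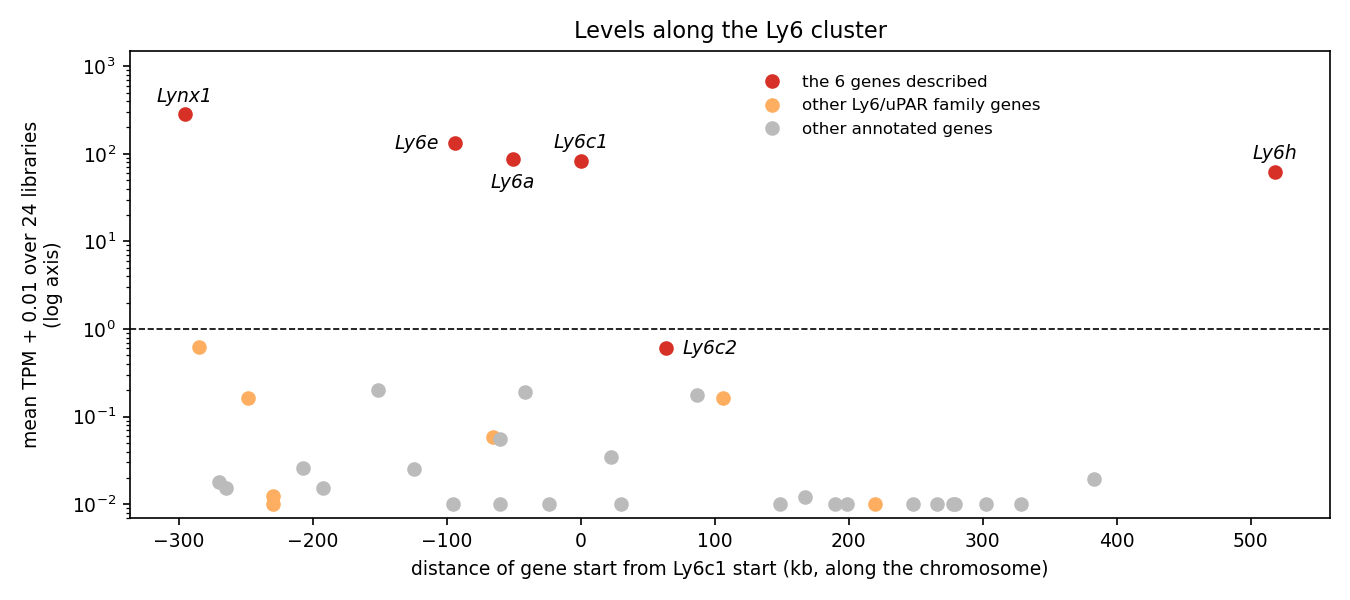
Mean TPM over 24 libraries (plus 0.01, log axis) of the 38 measured genes of the Ly6 cluster, against the distance of each gene start from that of Ly6c1 in kb along the chromosome. Red points are the 6 genes described, orange points other family genes and grey points other annotated genes, and the dashed line marks 1 TPM. Of all 38 genes, 5 lie above the line, and Ly6c2 lies below it at 0.604 TPM.

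The coding sequences of Ly6c1 and Ly6c2 were 97.7% identical over 393 aligned bases, so reads can be shared between these copies and the value of Ly6c2 is uncertain. Of all stretches of 50 bases in the Ly6c2 transcript, 32.6% were also in the Ly6c1 transcript, and of those of 100 bases 15.8%. Ly6a was 81.8% identical to Ly6c1 in its coding sequence and shared no such stretch of 50 bases with it. All other pairs of members were between 45.1% and 53.2% identical, apart from Ly6a and Ly6c2 at 81.6%. The first 150 coding bases of both copies are shown because they hold 6 of the differences that separate their reads, which are in capitals.
Ly6c1: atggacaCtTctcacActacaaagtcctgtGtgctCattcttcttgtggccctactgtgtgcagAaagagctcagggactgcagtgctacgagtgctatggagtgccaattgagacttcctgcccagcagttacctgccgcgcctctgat
Ly6c2: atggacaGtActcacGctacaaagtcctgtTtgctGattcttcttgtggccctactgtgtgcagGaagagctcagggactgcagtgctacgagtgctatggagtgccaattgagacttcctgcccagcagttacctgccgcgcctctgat

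Ly6c1 and Ly6c2 were the members with a promoter in the RefSeq table (build GRCm38.p6), 2 of 6. Over the 250 bases before the start, the copies could be aligned along 228 positions, of which 71.9% were identical, fewer than in the coding sequence. These windows are shown because Ly6c1 and Ly6c2 differed so widely in level, and capitals mark bases within the aligned part that differ or face a gap. That of Ly6c1 lies at chr15:75048838-75049087 and that of Ly6c2 at chr15:75111972-75112221, both read on the minus strand.
Ly6c1: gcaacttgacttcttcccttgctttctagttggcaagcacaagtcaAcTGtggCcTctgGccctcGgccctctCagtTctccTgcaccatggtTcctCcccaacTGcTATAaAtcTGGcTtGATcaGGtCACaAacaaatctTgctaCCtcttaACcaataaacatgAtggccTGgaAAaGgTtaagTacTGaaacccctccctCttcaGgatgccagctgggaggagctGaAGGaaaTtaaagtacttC
Ly6c2: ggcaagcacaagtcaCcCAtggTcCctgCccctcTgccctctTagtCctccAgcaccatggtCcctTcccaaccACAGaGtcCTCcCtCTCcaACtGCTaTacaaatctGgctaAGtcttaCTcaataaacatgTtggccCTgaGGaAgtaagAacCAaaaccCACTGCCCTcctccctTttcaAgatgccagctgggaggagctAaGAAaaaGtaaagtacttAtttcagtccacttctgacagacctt
Windows of 300 bases (250 before and 50 after the start) were searched on both strands for 3 motifs. The TATA box letters TATAAA began 143 bases before the start of Ly6c1 and were not found for Ly6c2, and 13.6% of all 32851 promoters of this length held them. The interferon-gamma activated site TTCNNNGAA, which reads the same on both strands, and the core GAAANNGAA of the interferon-stimulated response element were in neither window. Of all promoters, 8.3% held the first and 8.6% the second.

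Between 14368 and 14847 genes reached 1 TPM per library, and the 10 highest genes held 18.9% to 26.1% of the TPM. TPM values give no number of reads, so the depth is unknown, and p-values measure the spread between libraries that the labels call biological replicates. The tissue labels matched most of the markers listed for each region. Gabra6, a receptor subunit of cerebellar granule cells, was at 455 to 986 TPM in cerebellum and at most at 0.403 TPM elsewhere. Among the hippocampal markers, Wfs1 did not match, at 100 to 136 TPM in neocortex and 78.1 to 106 TPM in hippocampus. Prox1 overlapped between hippocampus (30.9 to 52.7 TPM) and cerebellum (18.4 to 35.3 TPM). Every other listed marker was higher in all libraries of its region than elsewhere. One cerebellar library stood furthest apart. Cerebellar LLC replicate 1 had the lowest Gabra6 (455 TPM) and 78.2 TPM of Lamp5, a gene of forebrain neurons, against 1.35 to 30.4 TPM in the other cerebellar libraries. Control 14 was shifted the same way to a lesser degree. It had the lowest Gabra6 of the cerebellar controls (761 TPM) and 30.4 TPM of Lamp5, against 1.35 to 9.27 TPM in the other controls. Cerebellar results of LLC against control for Ly6a, Ly6c1, Ly6c2, Ly6h and the gene lists of cell types are also given without LLC replicate 1, for Ly6c2 and the lists as an alternative chosen after seeing the data.

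In the control brain the order of levels was Lynx1, Ly6e, Ly6h, then Ly6c1 and Ly6a in neocortex and hippocampus. Lynx1 was at 297 ± 8.54 TPM (mean ± SD, n = 4, as in all such values) in neocortex, 294 ± 11.1 TPM in cerebellum and 306 ± 19.7 TPM in hippocampus. Ly6e followed at 151 ± 7.47 TPM, 81.7 ± 3.21 TPM and 158 ± 8.05 TPM in the same regions. Ly6h was at 75.0 ± 2.97 TPM in neocortex and 110 ± 6.61 TPM in hippocampus, but at 8.51 ± 0.618 TPM in cerebellum, below Ly6a and Ly6c1. Neither Ly6a and Ly6c1 in any region, nor Lynx1 between regions, were separated beyond their spread. Ly6c2 was the lowest everywhere, at 0.264 ± 0.218 TPM, 0.513 ± 0.0899 TPM and 0.382 ± 0.0864 TPM.

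Tests of regions used limma on log2(TPM + 1) with Benjamini-Hochberg adjustment over all genes with a mean of at least 1 TPM, at 0.05, in 1 fit of the 12 control libraries. Most genes differed between control regions: 84.9% were called between cerebellum and neocortex, 62.1% between hippocampus and neocortex and 83% between hippocampus and cerebellum. The members' counts of 3, 3 and 4 of 5 tested therefore lay near the background. Ly6h was higher in hippocampus than in cerebellum by 3.55 ± 0.05 on the log2 scale (estimate ± SE; limma adjusted p = 4.72e-16) and than in neocortex by 0.55 ± 0.05 (adjusted p = 8.83e-07), and it was also lower in cerebellum than in neocortex (adjusted p = 2.38e-15). Ly6e differed between cerebellum and neocortex by -0.88 ± 0.04 (limma adjusted p = 1.69e-10) and between hippocampus and cerebellum by 0.94 ± 0.04 (adjusted p = 9.76e-11).
The endothelial members had the opposite order, with hippocampus lowest. That order was not particular to them. In controls the 23 endothelial genes listed below summed to 369 to 403 TPM in hippocampus, 454 to 487 TPM in neocortex and 502 to 533 TPM in cerebellum. Ly6a was lower in hippocampus than in cerebellum by -0.69 ± 0.13 (limma adjusted p = 0.000183) and Ly6c1 by -0.57 ± 0.14 (adjusted p = 0.00181).
The median gene differed by 0.31 between cerebellum and neocortex and by -0.23 between hippocampus and cerebellum, so values are to be read against these shifts. Ly6a in cerebellum against neocortex, at 0.37 ± 0.13 (limma adjusted p = 0.0145), was 0.05 after median-ratio scaling (adjusted p = 0.747, the highest of its alternatives, which went down to 2.82e-05), and lost its call without control 15 or control 16 (adjusted p = 0.0678 and 0.0927). For Ly6c1 the same comparison gave 0.23 (limma adjusted p = 0.142) as deposited and -0.10 after that scaling (adjusted p = 0.514). With the title number as a block, which sets controls of the same number together, Ly6c1 passed at 0.23 (limma adjusted p = 0.00123). It also passed without control 17 (limma adjusted p = 0.0320). Lynx1, at -0.01 in cerebellum against neocortex as deposited, was at -0.34 after that scaling (limma adjusted p = 2.08e-05), and at 0.29 in hippocampus against cerebellum (adjusted p = 9.83e-05), which was 0.06 as deposited. Against neocortex, hippocampal Ly6a at -0.32 (limma adjusted p = 0.0446) and Ly6c1 at -0.34 (adjusted p = 0.0479) passed narrowly. Both lost the call without control 14, control 15 or control 16, with adjusted p from 0.0775 to 0.177 in those limma fits.

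In mice with an LLC tumour, Ly6a and Ly6c1 rose more than 2-fold in all 3 regions, and the other members tested did not pass. In cerebellum their rises were under 2-fold without LLC 1, the library that stood apart (log2 0.95 and 0.90). In neocortex Ly6a was at 43.3, 44.4, 44.9 and 66.4 TPM in controls 14 to 17 and at 154, 151, 130 and 102 TPM in LLC 1 to 4. The cerebellar controls had 58.1, 60.8, 65.6 and 70.6 TPM of Ly6a and the LLC libraries 190, 155, 125 and 97.5 TPM. The hippocampal values of Ly6a were 34.2, 39.6, 36.3 and 47.7 TPM in controls and 117, 98.1, 95.1 and 69.97 TPM in LLC. Every LLC library lay above every control library of its region. In whole tissue, more cells of a type and more RNA per cell cannot be told apart, nor can fewer cells and less RNA per cell. Within each region LLC 4 was the lowest LLC library and control 17 the highest control library.

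Mean Ly6a went from 49.8 ± 11.1 to 134 ± 24.1 TPM in neocortex, 2.69-fold, and on the log2 scale it rose by 1.42 ± 0.16 (limma adjusted p = 0.00229). In cerebellum the means were 63.8 ± 5.51 and 142 ± 39.7 TPM, 2.22-fold, and it rose by 1.10 ± 0.17 on that scale (limma adjusted p = 0.0234). The hippocampal means were 39.4 ± 5.94 and 95.1 ± 19.4 TPM, 2.41-fold, and the rise was 1.24 ± 0.15 (limma adjusted p = 0.00729).

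Ly6c1 took nearly the same course at nearly the same level. Its neocortical values were 49.3, 44.6, 55.8 and 63.2 TPM in controls 14 to 17 and 141, 138, 125 and 82.8 TPM in LLC 1 to 4. Cerebellar Ly6c1 was at 54.8, 57.4, 62.2 and 75.1 TPM in controls and at 174, 143, 123 and 88.7 TPM in LLC. Hippocampal Ly6c1 was at 35.0, 37.0, 41.2 and 55.5 TPM in controls and at 108, 93.1, 99.2 and 63.7 TPM in LLC. Again no LLC library overlapped the controls, LLC 4 was lowest and control 17 highest in each region. The rise was 2.28-fold in neocortex (log2 1.16 ± 0.16, limma adjusted p = 0.00605) and 2.12-fold in cerebellum (log2 1.04 ± 0.18, adjusted p = 0.0281). In hippocampus it was 2.16-fold (log2 1.09 ± 0.17, limma adjusted p = 0.0186).

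**Figure D2:**
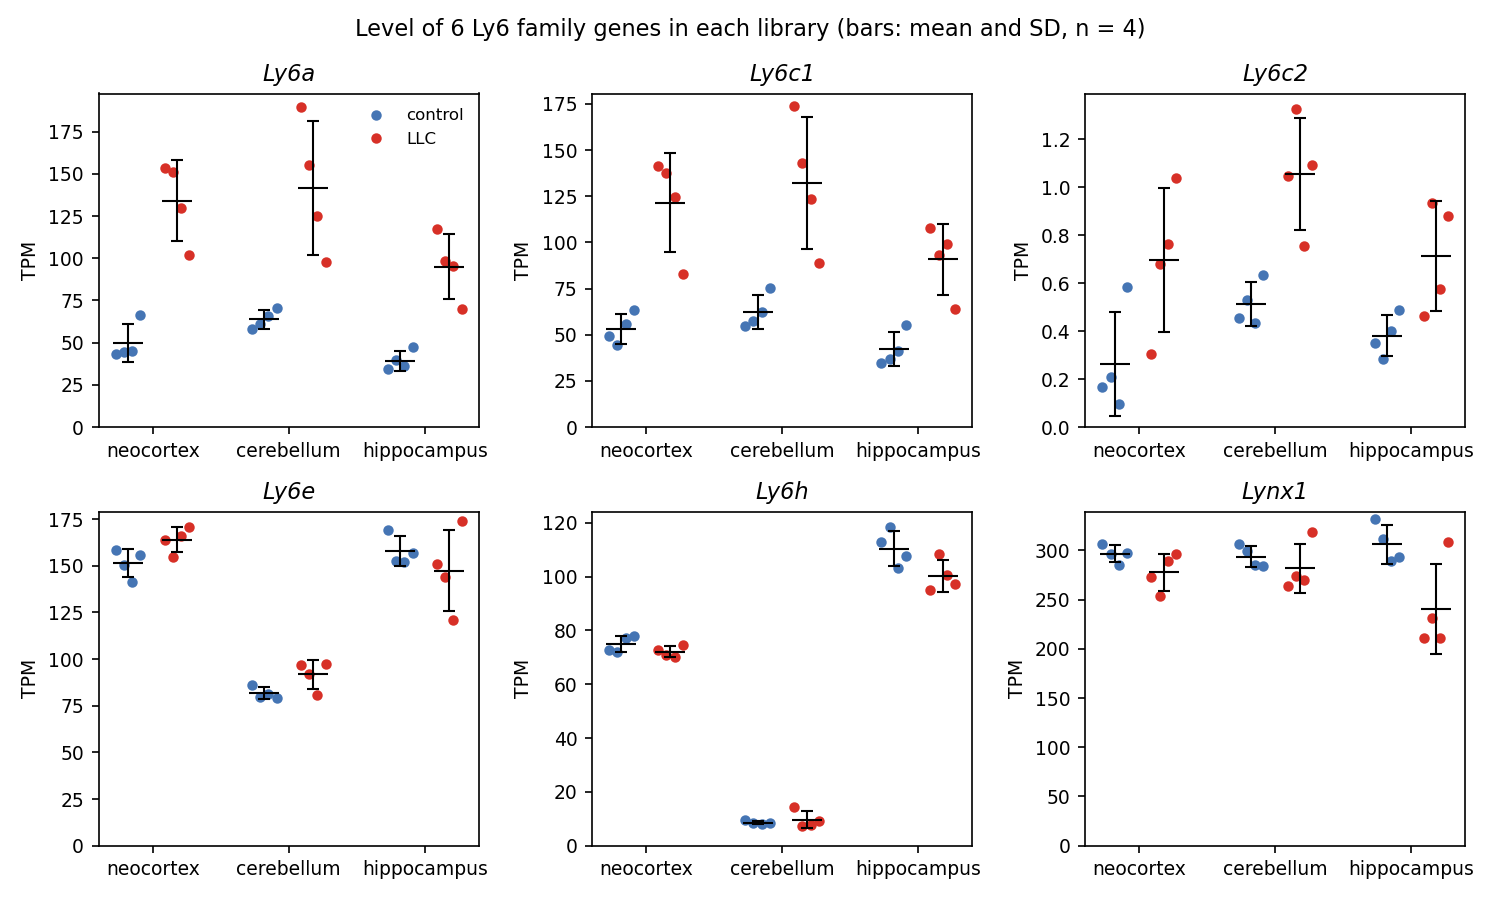
TPM of the 6 genes in each library, with control in blue and LLC in red for neocortex, cerebellum and hippocampus, libraries in order of their number from left to right, and black bars for the mean and SD of 4 libraries. For Ly6a and Ly6c1 every red point lies above every blue point of its region, whereas Ly6e, Ly6h and Lynx1 overlap. Axes differ between panels, and Ly6c2 does not exceed 1.33 TPM.

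Against the background these counts were as follows. In neocortex 2 of 5 tested members rose and 0 fell, with 8.54% of all genes called, 5.59% higher and 2.95% lower. In cerebellum the members' counts were the same, against 2.5% called, 1.23% higher and 1.27% lower, and likewise in hippocampus, against 3.61%, 2.58% and 1.03%. At an unadjusted limma p under 0.05 there were 3, 3 and 4 of 5 members in these regions, and 29.8%, 24.4% and 22.2% of all genes. Groups that did not overlap were seen for 17% of genes in neocortex, 16.7% in cerebellum and 13.8% in hippocampus.
Averaged over the 3 regions per number, Ly6a rose by 1.25 ± 0.15 (limma adjusted p = 0.00313) and Ly6c1 by 1.10 ± 0.17 (adjusted p = 0.00619), with 13.1% of genes called, 7.66% higher and 5.45% lower. Lynx1 did not pass in this average (-0.17 ± 0.07, limma adjusted p = 0.0973). It passed in 1 of 13 alternatives, whose limma adjusted p ranged from 0.00141 to 0.206.

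The neocortical calls held under all alternatives tried. In cerebellum both calls were lost without any 1 of control 14, 15, 16 or 17 or LLC 2 or LLC 3 (limma adjusted p from 0.0551 to 0.112) and without the filter on low values (0.0532 for Ly6a and 0.0605 for Ly6c1). Without the library that stood apart, cerebellar LLC 1, Ly6a rose by 0.95 (limma adjusted p = 0.00754) and Ly6c1 by 0.90 (adjusted p = 0.0144). Hippocampal Ly6c1 lost its call without control 14, 15 or 16 or LLC 2 (limma adjusted p from 0.0535 to 0.0594; over all alternatives from 0.00122 to 0.0594).

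**Figure D3:**
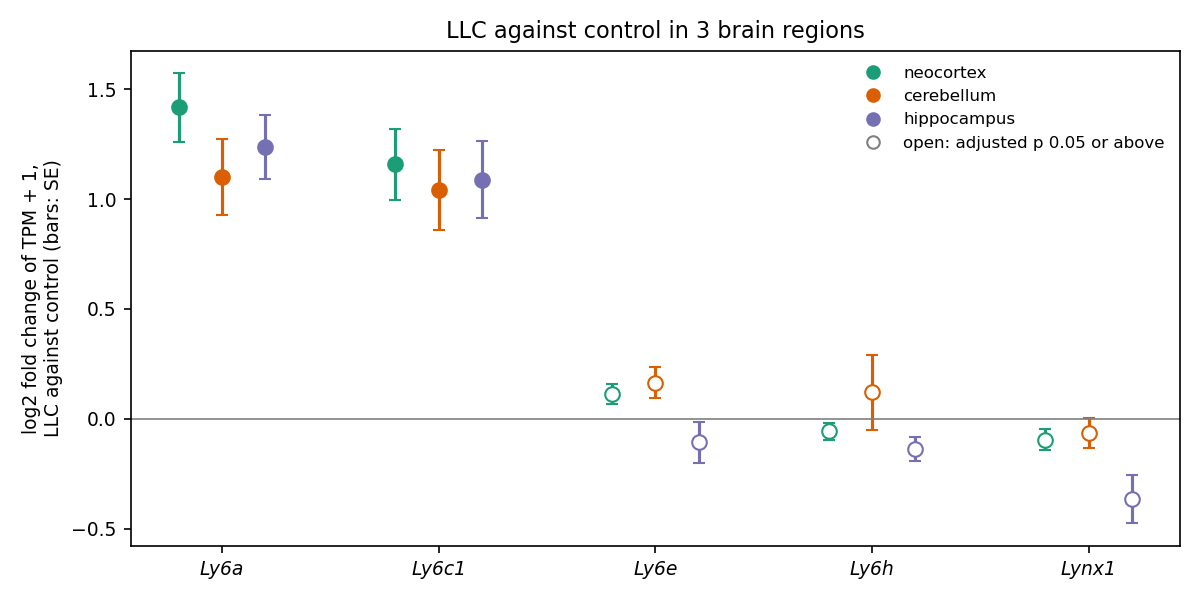
Log2 fold change of TPM + 1, LLC against control, with its SE, for the 5 members tested in neocortex (green), cerebellum (orange) and hippocampus (purple). Filled points passed an adjusted p of 0.05 in limma. Ly6a and Ly6c1 lie between 1.04 and 1.42, and the 9 other points lie between -0.36 and 0.16.

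No member passed a test of the difference between regions. For Ly6a the difference of the log2 changes was -0.32 ± 0.26 for cerebellum minus neocortex, -0.18 ± 0.26 for hippocampus minus neocortex and 0.14 ± 0.26 for hippocampus minus cerebellum. For Ly6c1 these were -0.12 ± 0.28, -0.07 ± 0.28 and 0.05 ± 0.28. With limma 0 of 5 members passed in any of these 3 contrasts (0, 1 and 2 at an unadjusted p under 0.05, lowest adjusted p 0.326), where 0.646%, 0% and 0.0936% of all genes passed, and 12.9%, 1.91% and 12.3% at an unadjusted p under 0.05. With the title number as a block 0 members passed likewise, and for cerebellum minus neocortex that limma fit gave an adjusted p of 0.11 for Ly6a and 0.494 for Ly6c1.

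Ly6c2, the monocyte copy, was at most at 1.33 TPM and under the filter in all regions, so its TPM was tested alone with a two-sided exact permutation test of 4 against 4 libraries, whose smallest p is 0.0286. In cerebellum it was at 0.454, 0.529, 0.435 and 0.633 TPM in controls and at 1.05, 1.33, 0.755 and 1.09 TPM in LLC. No LLC library overlapped the controls there (exact p = 0.0286, adjusted over the 3 regions 0.0571), nor without LLC 1 (exact p = 0.0286, the smallest that 3 against 4 allows). In neocortex its controls were at 0.166, 0.209, 0.0969 and 0.583 TPM and its LLC libraries at 0.306, 0.681, 0.761 and 1.04 TPM (exact p = 0.0571, adjusted 0.0571). In hippocampus they were at 0.350, 0.286, 0.401 and 0.490 TPM and at 0.462, 0.932, 0.576 and 0.879 TPM (exact p = 0.0571, adjusted 0.0571). Both of the latter pairs of groups overlapped, and no region passed after adjustment. Over all libraries Ly6c2 averaged 0.604 TPM and Ly6c1 83.7 TPM, and whether reads of Ly6c1 were assigned to its copy was not tested.

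Ly6e, the interferon-induced member, did not pass in any region. Its means were 151 ± 7.47 and 164 ± 6.74 TPM in control and LLC neocortex (log2 0.11 ± 0.04, limma adjusted p = 0.125). In cerebellum they were 81.7 ± 3.21 and 91.8 ± 7.68 TPM (log2 0.16 ± 0.07, limma adjusted p = 0.192). In hippocampus the LLC mean was the lower, at 147 ± 21.8 against 158 ± 8.05 TPM (log2 -0.11 ± 0.09, limma adjusted p = 0.539). The hippocampal LLC libraries spread widely, from 121 TPM in LLC 3 to 174 TPM in LLC 4. With weights per library, cerebellar Ly6e passed at 0.16 (limma adjusted p = 0.0148; over its alternatives from 0.0148 to 0.394).

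Of the neuronal members, Ly6h did not pass in any region either. In neocortex it was at 72.9, 72.0, 77.3 and 77.8 TPM in controls and at 72.7, 70.8, 70.1 and 74.8 TPM in LLC (log2 -0.06 ± 0.04, limma adjusted p = 0.362). In hippocampus its means were 110 ± 6.61 and 100 ± 5.86 TPM (log2 -0.14 ± 0.06, limma adjusted p = 0.188). In cerebellum, where it was low, controls held 7.93 to 9.38 TPM and LLC 2 to 4 held 7.40 to 9.04 TPM, while LLC 1 held 14.3 TPM. The cerebellar log2 difference was 0.12 ± 0.17 (limma adjusted p = 0.695) with LLC 1 and -0.07 without it (adjusted p = 0.642). The same library was high in Lamp5 and in Lypd6b, another family gene (13.8 TPM, against 1.97 to 4.09 TPM in the other cerebellar libraries).

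Lynx1, the nicotinic receptor modulator, had its widest difference in hippocampus. The controls were at 332, 311, 289 and 293 TPM and the LLC libraries at 212, 232, 211 and 308 TPM. LLC 1 to 3 lay below all controls and LLC 4 lay among them. Its log2 difference there was -0.36 ± 0.11 and did not pass (limma adjusted p = 0.0959). Without LLC 4 it fell by 0.49 on the log2 scale and passed (limma adjusted p = 0.00178), and it also passed with weights per library (0.0283) and with all 24 libraries in 1 fit (0.0202), the alternatives ranging from 0.00178 to 0.208. In neocortex the means were 297 ± 8.54 and 278 ± 18.8 TPM and in cerebellum 294 ± 11.1 and 282 ± 25.1 TPM, with log2 differences of -0.09 ± 0.05 and -0.06 ± 0.07 (limma adjusted p = 0.225 and 0.597). LLC 4 was the highest LLC library for Lynx1 in all 3 regions, where it was the lowest for Ly6a and Ly6c1.

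The order of the members by level thus changed with the tumour. In control neocortex Ly6h lay above Ly6a and Ly6c1, and in LLC neocortex every library had more Ly6a and Ly6c1 than Ly6h. In control cerebellum Ly6e, at 79.3 to 86.3 TPM, lay above every Ly6a value, and in LLC cerebellum every library had more Ly6a than Ly6e, in LLC 4 by a narrow margin (97.5 against 97.3 TPM).

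Because Ly6a and Ly6c1 are endothelial in brain, they were set beside 23 other endothelial genes. Of the 23 genes, 18 rose and 1 fell in neocortex (median log2 0.54, against 0.01 for all genes), 4 rose and 1 fell in cerebellum (0.30 against -0.04), and 13 rose and 1 fell in hippocampus (0.44 against 0.01). Shares of all genes called were 8.54%, 2.5% and 3.61%. Vwf, a clotting factor carrier stored in endothelium, rose most by p, by 2.54 ± 0.25, 2.04 ± 0.22 and 2.19 ± 0.20. Eng, a TGF-beta co-receptor, rose by 0.82, 0.72 and 0.83, and Pecam1, a junction protein, by 0.94, 0.65 and 0.82. The member that fell in each region was Itm2a, a membrane protein (-0.35, -0.64 and -0.48). The summed TPM of the 23 genes was 454 to 487 in control and 558 to 727 in LLC neocortex, 502 to 533 and 524 to 741 in cerebellum, and 369 to 403 and 462 to 556 in hippocampus, and no gene of the list was at 0.

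Per library, the mean log2(TPM + 1) of the endothelial list was subtracted from that of Ly6a and of Ly6c1, giving a relative level. The list itself was higher in LLC by 0.60 in neocortex, 0.35 in cerebellum and 0.50 in hippocampus (two-sided exact permutation p = 0.0286 each, the smallest that 4 against 4 allows). Relative to it, Ly6a was still higher in LLC by 0.82 in neocortex, 0.75 in cerebellum and 0.73 in hippocampus (exact permutation p = 0.0286 each, adjusted over 6 tests 0.0343). Relative Ly6c1 was higher by 0.56 and 0.69 in neocortex and cerebellum (exact permutation p = 0.0286, adjusted 0.0343) and by 0.58 in hippocampus (exact p = 0.0571, adjusted 0.0571). In hippocampus relative Ly6c1 was 1.99 in LLC 4, below the 2.11 of control 17, and elsewhere the LLC libraries lay above all controls. With 1 library left out the exact test could miss 0.05 at 0.0571 for Ly6a in neocortex (without any LLC library) and for Ly6c1 in neocortex (without control 14, control 15 or LLC 1) and cerebellum (without control 14, control 15, LLC 1, LLC 2 or LLC 3).

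**Figure D4:**
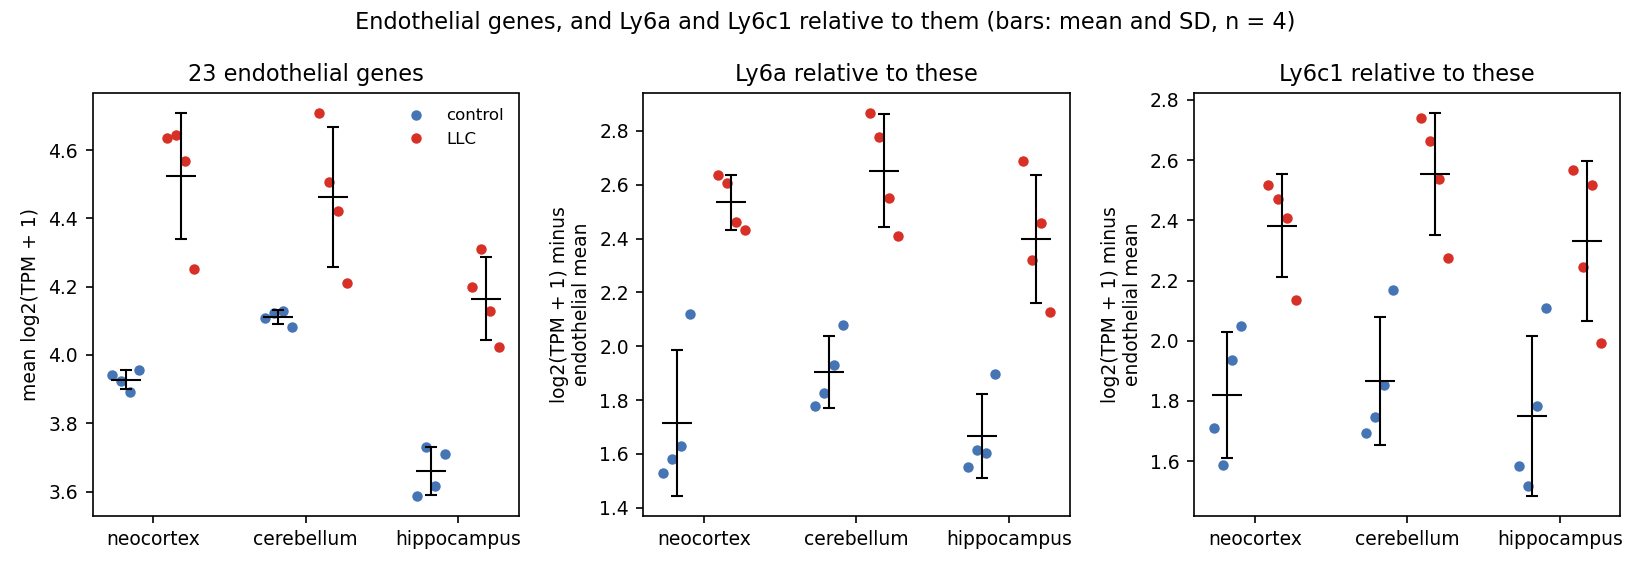
Mean log2(TPM + 1) of 23 endothelial genes per library (left), and log2(TPM + 1) of Ly6a (middle) and Ly6c1 (right) minus that mean, with control in blue, LLC in red, libraries in order of their number and bars for mean and SD of 4 libraries. The LLC libraries lie above all controls in each panel except for relative Ly6c1 in hippocampus, where LLC 4 (1.99) lies below control 17 (2.11).

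Genes listed for monocytes, neutrophils, red cells and lymphocytes, some of which carry Ly6 antigens, were read in the same way. Of the monocyte genes 5 of 6 tested rose in neocortex, 1 of 6 in cerebellum and 1 of 5 in hippocampus, with none falling, and Chil3, a chitinase-like protein of myeloid cells, rose in all 3 (log2 2.51, 2.10 and 1.67). The summed TPM of the 12 monocyte genes was 32.7 to 36.5 in control and 57.8 to 98.4 in LLC neocortex, 30.2 to 41.7 and 36.7 to 78.1 in cerebellum, and 23.3 to 30.3 and 32.3 to 69.3 in hippocampus. Of the neutrophil genes 5 of 8, 3 of 6 and 3 of 5 rose, among them the calprotectin genes S100a8 (3.08, 2.91 and 2.97) and S100a9 (3.63, 2.94 and 3.45). The filter took LLC and control libraries together, so a gene low in controls could be tested through its LLC values. The monocyte, neutrophil and red cell counts are therefore given as a description. Of all genes tested, 5.59%, 1.23% and 2.58% were higher and 2.95%, 1.27% and 1.03% lower in neocortex, cerebellum and hippocampus. The 14 neutrophil genes summed to 9.70 to 14.8, 7.08 to 20.3 and 7.31 to 16.9 TPM in control and to 48.2 to 214, 47.5 to 160 and 32.3 to 129 TPM in LLC. Cxcr1, a chemokine receptor of neutrophils, was at 0 in all controls of each region, Stfa2l1 in those of cerebellum and hippocampus, and Elane in those of hippocampus. Ly6g, the neutrophil antigen of this family, reached 0.385, 0.384 and 0.0962 TPM on average in LLC.
Of the red cell genes 7 of 9, 7 of 10 and 5 of 8 rose, and haemoglobin Hbb-bt rose by 3.32, 3.28 and 3.01. Their 10 genes summed to 1451 to 1840, 1368 to 1780 and 1267 to 1662 TPM in control and to 3897 to 15492, 4412 to 15766 and 3121 to 10833 TPM in LLC. Of the lymphocyte genes, 2 were tested per region, of which Ighm, an antibody heavy chain, fell in neocortex (-1.39) and none passed elsewhere (0 also at an unadjusted limma p under 0.05), and the 12 summed to 56.1 to 75.5 and 26.1 to 63.5 TPM in control and LLC neocortex, 12.4 to 20.0 and 14.4 to 40.2 TPM in cerebellum and 19.3 to 22.8 and 12.6 to 37.5 TPM in hippocampus, with Cd3e and Cd3g at 0 in the hippocampal controls. The 40.2 TPM was that of LLC 1, the library that stood apart, and LLC 2 to 4 held 14.4 to 16.1 TPM. The part of these cell types in the values of Ly6a, Ly6c1 and Ly6c2 was not tested.

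LLC 4 differed from LLC 1 to 3 in several of these lists at once. In all 3 regions it had the lowest endothelial sum and the lowest red cell sum of the LLC libraries, together with the lowest Ly6a and Ly6c1. It had the highest neutrophil and monocyte sums of the LLC libraries in all 3 regions, and the highest Ly6c2 in neocortex. The labels do not say whether libraries of a number come from 1 mouse, so these patterns may not be independent between regions.

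Pericyte and smooth muscle genes rose in 7, 1 and 3 of 12, led in each region by Abcc9 or Kcnj8, channel subunits of pericytes. Shares of all genes called in these regions were 5.59%, 1.23% and 2.58% higher and 2.95%, 1.27% and 1.03% lower. Abcc9 rose by 1.02, 0.59 and 0.85. The list summed to 258 to 289, 315 to 343 and 213 to 248 TPM in control and 315 to 389, 342 to 452 and 265 to 317 TPM in LLC.
Among 12 neuronal genes 4 fell in neocortex and 2 in hippocampus, where 1 rose (Rbfox3, a nuclear splicing factor, 0.16), and 0 passed in cerebellum (1 at an unadjusted limma p under 0.05). Tubb3, a neuronal tubulin, fell by 0.46 in neocortex and by 0.58 in hippocampus. These genes summed to 7978 to 8170 and 6838 to 7858 TPM in control and LLC neocortex, 4424 to 4626 and 4090 to 5005 TPM in cerebellum and 6609 to 7132 and 6162 to 6741 TPM in hippocampus. Their part in the lower hippocampal Lynx1 was not tested.
Of 11 microglial genes 0 passed in any region (6, 2 and 2 at an unadjusted limma p under 0.05, as had 29.8%, 24.4% and 22.2% of all genes). Of 8 choroid plexus genes only Prlr, the prolactin receptor, passed, and fell in cerebellum (-0.68), with 0, 3 and 0 genes at an unadjusted limma p under 0.05. Choroid plexus sums varied from 53.7 to 7452 TPM among hippocampal libraries of both groups.
Without LLC 1, 8.84% of all genes were called in cerebellum with limma, 648 higher and 640 lower. There 7 endothelial genes rose and 1 fell of 23, 2 of 6 monocyte genes, 5 of 6 neutrophil genes, 7 of 9 red cell genes and 2 of 12 pericyte and smooth muscle genes rose, and 1 of 12 neuronal, 1 of 11 microglial and 1 of 8 choroid plexus genes fell. Vwf rose by 1.89, Eng by 0.65, Pecam1 by 0.55, Chil3 by 2.13, S100a8 by 3.22, S100a9 by 3.24, Hbb-bt by 3.12 and Abcc9 by 0.54 in that fit. The LLC sums without this library were 524 to 633 TPM for endothelial, 342 to 385 TPM for pericyte and smooth muscle and 4090 to 4471 TPM for neuronal genes, and 52.2 to 160 TPM for neutrophil genes, while LLC 1 held neither the lowest nor the highest sum of monocyte or red cell genes.

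The rest of the Ly6 family was read from a list. Of 43 other family genes on the list, 33 were in the table, 2 of them were at 0 in all libraries and 9 had a mean of at least 1 TPM. In neocortex 1 rose and 1 fell of 8 tested, in cerebellum 1 rose of 11, and in hippocampus 0 of 5 passed (0 at an unadjusted limma p under 0.05), with medians of -0.07, -0.03 and -0.06. Of all genes 8.54%, 2.5% and 3.61% were called in these regions. The gene that rose was Plaur, the urokinase receptor, from 0.735 ± 0.251 to 1.74 ± 0.555 TPM in neocortex (log2 0.65 ± 0.16, limma adjusted p = 0.0376) and from 0.535 ± 0.249 to 1.67 ± 0.571 TPM in cerebellum (0.79 ± 0.18, adjusted p = 0.0492), and without cerebellar LLC 1 it rose by 0.76. Plaur averaged under 1 TPM in these controls and reached the filter through its LLC values, so its calls are given as a description. In hippocampus Plaur was under the filter, at 0.324 ± 0.0759 and 1.09 ± 0.332 TPM. Cd59b, a complement regulator, fell in neocortex from 1.75 ± 0.0773 to 1.06 ± 0.278 TPM (log2 -0.43 ± 0.10, limma adjusted p = 0.0381). Among the most abundant other members, Lypd1, a neuronal binder of nicotinic receptors, was at 37.5 ± 3.74 and 33.1 ± 4.44 TPM in control and LLC neocortex, and Lypd6, a modulator of Wnt and nicotinic signalling, at 26.5 ± 1.36 and 25.4 ± 1.66 TPM. None of these passed.

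Genes that serve the Ly6 proteins or share their interferon response were read against the same shares of all genes called. Of 28 genes that build and attach the GPI anchor, 0 passed in neocortex, cerebellum or hippocampus with limma (6, 4 and 2 at an unadjusted p under 0.05), with medians of 0.04, -0.06 and 0.03. In the average over regions 2 of the 28 rose, Pigt and Pigz, where 7.66% of all genes were higher. Of the nicotinic receptor subunits and their chaperones, partners of Lynx1 and Ly6h, 0 of 6, 7 and 6 tested passed (3, 1 and 0 at an unadjusted limma p under 0.05), with medians of -0.02, -0.12 and -0.01. Of the interferon-stimulated genes, 2 of 25 rose and 2 fell in neocortex. In cerebellum 1 of 27 rose and 0 fell, and in hippocampus 0 of 24 passed. At an unadjusted limma p under 0.05 there were 6, 6 and 3, and the medians were -0.07, -0.09 and -0.04. Ifitm3, a membrane protein that blocks virus entry, rose by 0.57 in neocortex and 0.43 in cerebellum, Rsad2, an antiviral enzyme, rose by 0.51 in neocortex, and Gbp3, a GTPase, and Bst2, a tether of budding viruses, fell there (-0.52 and -0.34). Without cerebellar LLC 1, Ifitm3 rose by 0.40, and 2 interferon-stimulated genes rose and 1 fell of 27.

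Patterns most like each member were sought over the 24 libraries, among 13606 genes, by Pearson's r of log2(TPM + 1) after the mean of each region was subtracted. These r include the difference between LLC and control and are descriptions. For Ly6h they also include cerebellar LLC 1, the library that stood apart. That library held 14.3 TPM of Ly6h, against 7.40 to 9.38 TPM in the other cerebellar libraries. Its part in the r of Ly6h was not tested. Nearest to Ly6a was Ly6c1 (0.98), followed by Pglyrp1, a peptidoglycan-binding protein, Vwf, Ctla2a and Adgrl4, an endothelial adhesion receptor, also at 0.98. Nearest to Ly6c1 after Ly6a were Eogt, a glycosyltransferase, Slc2a1, the glucose carrier of the blood-brain barrier, Adgrl4 and haemoglobin Hbb-bt (0.97 to 0.98). Within neocortex, cerebellum and hippocampus, Ly6a and Ly6c1 had r of 0.98, 0.99 and 0.98. The members that did not pass had other neighbours. Nearest to Ly6e were Yipf1 (0.85), Ccdc3 (0.80), Fbxw5, Fam195b and Wdr18, to Ly6h Limk1, an actin-regulating kinase (0.92), Prph, Doc2a, Palm3 and Mpped1, and to Lynx1 Tagln3, a neuronal calponin-related protein (0.92), Tspan17, Aldh1l1, an astrocyte enzyme, Tuba1a, a tubulin, and Tril.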

How the data were processed

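Per the labels' protocols, tissue was lysed in Trizol and stranded TruSeq mRNA libraries were sequenced on a NovaSeq. A single table of TPM for 47643 symbols and 24 libraries was deposited by the authors. The submitters' processing notes name mm10, while aligner, annotation and filters are not given in the sources used. TPM is scaled per library, so a gene that gains share lowers the others, and a read number is lost. Counting by strand is not stated.

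The members and gene lists were chosen with earlier results of these data known. Groups came from the titles. No pair of the 276 library pairs was identical. Genes with a mean of at least 1 TPM were tested with limma 3.58.1 (R 4.3.3; lmFit, eBayes with a trend) on log2(TPM + 1), two-sided, Benjamini-Hochberg at 0.05; fold changes of low genes are understated on this scale. Ly6c2 and relative levels had exact permutation tests. The named genes were the 6 members, list genes that passed (up to 4 for each list and region by p, of which the text gives some), and the 5 genes most correlated with each member; the most abundant other family genes were named after their values were seen. Fits were tested on simulated data. Sequences were compared with Biopython 1.88 in Python 3.11.15, and transcripts came from GENCODE M21. No protein sequence was used here. The result of 1 list gene is not reported here.

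Control libraries of cerebellum and neocortex with the same title number had correlations of deviations of 0.11 to 0.26, all 4 over 0.1. Libraries of unlike numbers were not compared, so whether the number pairs libraries was not tested. Over all pairs of regions, 16 of 24 title-number pairs were over 0.1, and they ranged from -0.096 to 0.625. For LLC 4 they were 0.457 (cerebellum and neocortex), 0.625 (hippocampus and neocortex) and 0.456 (hippocampus and cerebellum). Results that recur across regions may therefore not be independent. The description numbers run from 1 to 4 in both LLC and control, and the labels do not say whether they link animals. They gave 5 of 12 pairs over 0.1, among them cerebellar pairs at 0.470, 0.266 and 0.146, and ranged from -0.256 to 0.470. Alternatives were a pseudocount of 0.1, a filter at 5 TPM or none, other scalings, robust eBayes, library weights, 1 fit of all libraries, blocks by number, the sum of Ly6c1 and Ly6c2, and leaving out each library.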

Additional observations from a re-analysis of the deposited data

Results flagged for a closer look

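Among 36 groups of 4 libraries (6 genes in 6 groups), 1 held a library far from the others. Ly6a in control neocortex was at 66.4 TPM in control 17, with the other 3 controls between 43.3 and 44.9 TPM. The gap was 0.931 of the range of the group, above the limit of 0.829 for 4 samples, and chance flags about 1 in 20 groups. Control 17 was also the highest control for Ly6a in cerebellum (70.6 TPM) and hippocampus (47.7 TPM), and for Ly6c1 in all 3 regions.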

How the results depend on the processing

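The count of members called in neocortex was 2 under all 18 alternatives. For the region average it ranged from 2 to 3 over 13 alternatives. The cerebellar count was 0 without a filter and from 0 to 2 with 1 library left out. The hippocampal count was 1 with the description number as a replicate block, since Ly6c1 lost its call (limma adjusted p = 0.0582), and from 1 to 3 with 1 library left out. These libraries share only a number, and the block changed no other call of LLC against control. Leaving out each number gave 1 to 3 members between control hippocampus and neocortex, and 0 to 1 for hippocampus minus cerebellum, where Lynx1 (-0.36, limma adjusted p = 0.0204; over its alternatives from 0.0204 to 0.742) passed without LLC 4. Relative levels with 1 library left out ranged from 0.758 to 0.955 for Ly6a in neocortex, and for Ly6c1 from 0.484 to 0.644 in neocortex and from 0.626 to 0.789 in cerebellum.

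Signs turned only for log2 values that did not pass in the fit as deposited. Cerebellar Ly6h was -0.083 with library weights and from -0.069 to 0.220 with 1 library left out. With a number left out its region average ranged from -0.080 to 0.0051, its cerebellum minus neocortex difference from -0.0086 to 0.267 and that of Lynx1 from -0.00098 to 0.070. Ly6c1 for hippocampus minus cerebellum was -0.0064 after median-ratio scaling and from -0.022 to 0.102 with a number left out. Between control regions, median-ratio scaling gave -0.099 for Ly6c1 in cerebellum against neocortex, and -0.036 for Ly6e and -0.049 for Lynx1 in hippocampus against neocortex. Lynx1 in cerebellum against neocortex ranged from -0.022 to 0.0034 with a control left out. The cause of these changes was not tested. Depth is unknown, and 4 libraries per group limit what small differences can be seen.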
